A study of Homo sapiens with 13 samples.

Results

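The lung cancer lines M1, M4 and M5, which were recovered from bone metastases, were compared as a group with the control cells they came from. Members were chosen by label alone: 9 of the 13 arrays of the series carry the name of 1 of these lines, and all 4 control arrays were the comparison. The metastatic groups were M1, M4 and M5, with 3 arrays each. The control groups were cells with a luciferase reporter and cells without it, with 2 arrays each. All of them are human non-small cell lung carcinoma cells of a parental line that the labels do not name. Per the labels, control cells were injected into the heart of mice, cells that spread to bone with high efficiency were taken out, and each subpopulation was tested by reinjection into 10 mice per group. Each array received a pool of 3 groups of cells. The labels do not say whether the lines carry luciferase, whether each line is 1 clone, or whether replicates were separate cultures, so the p-values below measure only the spread between these arrays. The question, as far as the title of the series states it, is which genes make up a signature of bone colonisation, and here the lines were weighted equally to find changes that they share.

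As background, tumour cells that reach bone must survive in marrow, attach to matrix and stromal cells, and disturb the balance between bone-forming osteoblasts and bone-resorbing osteoclasts. Factors of the tumour such as secreted interleukin 6 and CCN2 and the membrane-bound Notch ligand JAG1 can act on osteoblasts and osteoclasts, and bone matrix releases TGF-beta and insulin-like growth factors as it is resorbed.

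Signals are log2 values, so a difference of 1 is a change of 2-fold. All 13 arrays were closely alike across genes, which are not independent replicates, with correlations between 0.975 and 0.998. No array was a copy of another, as the smallest median absolute difference between 2 arrays was 0.0932. The 62 control probe sets of the array, of which 45 read spiked transcripts and 17 human ones such as actin and GAPDH, sorted the arrays into 4 sets. Set 1 held M1 replicate 2 and replicate 1 of both kinds of control. Set 2 held replicate 1 of M1, M4 and M5 and replicate 2 of both kinds of control. Set 3 held M1 replicate 3 and M4 replicates 2 and 3, and set 4 held M5 replicates 2 and 3 alone. Across all genes, all 13 of 13 arrays had their nearest neighbour in their own set, and 4 had it in their own group. The spike-in probe sets alone gave 3 sets, in which sets 1 and 3 were joined. The labels do not say what the sets are, and since some of the probe sets read the cells' own RNA, they need not be technical alone. The genes described in detail are therefore given both without the sets and with the 4 sets as a block, and with the block the M5 part of the mean rests on M5 replicate 1.

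The cells had high signals of some keratins of simple epithelia and of vimentin, but not of all epithelial markers. KRT18, a keratin of simple epithelia, had signals of 12.31 to 12.78 on metastatic arrays and 12.54 to 12.74 on control arrays, and VIM had 12.81 to 13.17 on metastatic arrays and 13.00 to 13.21 on control arrays. The epithelial adhesion molecules EPCAM and CDH1 were dim and lay under the lower quartile of the array on all 9 metastatic and all 4 control arrays. NKX2-1, a lung lineage factor, had 5.04 to 5.82 on metastatic arrays and 5.16 to 5.44 on control arrays, close to the median signals of the arrays, which ran from 5.618 to 5.694. None of these genes passed the test (limma adjusted p between 0.637 and 0.99). A second NKX2-1 probe set was dimmer (mean signal 3.95). The keratins KRT8, KRT19, KRT7 and KRT5 had mean signals of 10.15, 10.44, 6.98 and 4.43, and none was called in either fit. KRT8 differed by -0.51 without the block and -0.0155 with it. Of 33 epithelial identity genes measured, 11 had a mean above the median of the gene means.

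The changes that passed the test without the block were a rise of 2 genes tied to the actin cytoskeleton and a fall of a secreted binder of insulin-like growth factors. SORBS2, an adaptor protein of stress fibres and focal adhesions, had signals of 8.08, 7.78 and 8.49 in M1, 8.02, 8.18 and 8.50 in M4, and 8.57, 8.58 and 8.34 in M5, against 6.70 and 7.61 in controls with luciferase and 6.41 and 7.06 in controls without it. No control array reached any of the 9 metastatic arrays, and the gene was 2.53-fold higher (log2 difference 1.34 ± 0.18, SE; limma adjusted p = 0.0447). With the array sets as a block it was 2.04-fold higher (1.03 ± 0.12, adjusted p = 0.00242). In such bulk RNA, a change in the number of cells of a type and a change in RNA per cell cannot be told apart. CRYBG1, a protein with crystallin-like domains that is known to associate with actin, had 8.26, 8.15 and 8.40 in M1, 7.74, 7.68 and 7.52 in M4, and 7.87, 7.43 and 7.20 in M5, against 7.37 and 6.99 in controls with luciferase and 6.76 and 6.76 in controls without it. In M5, 1 array lay below the highest control array, and M1 was the highest of the lines. The difference was 0.83 ± 0.12 (1.78-fold, adjusted p = 0.0455) without the block and 0.97 ± 0.11 (1.95-fold, adjusted p = 0.0025) with it.

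IGFBP3, which carries insulin-like growth factors outside cells and limits their access to the receptor, had signals of 9.70, 9.95 and 9.64 in M1, 10.21, 9.90 and 9.71 in M4, and 9.86, 9.69 and 9.70 in M5, against 10.42 and 10.21 in controls with luciferase and 10.87 and 10.73 in controls without it. The groups touched at 1 array each and were otherwise apart. IGFBP3 was 1.67-fold lower in the metastatic lines (-0.74 ± 0.10, adjusted p = 0.0447) and 1.47-fold lower with the block (-0.55 ± 0.085, adjusted p = 0.0192). A second probe set of IGFBP3 was lower too (-0.85), whereas the second probe set of SORBS2, which was dim, differed by 0.17. Within array set 2, M1, M4 and M5 were above the mean of the controls by 0.75, 0.69 and 1.24 for SORBS2, and below it by -0.77, -0.26 and -0.61 for IGFBP3. The fall of IGFBP3 was -0.50 against controls with luciferase and -0.98 against controls without it.

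**Figure D1:**
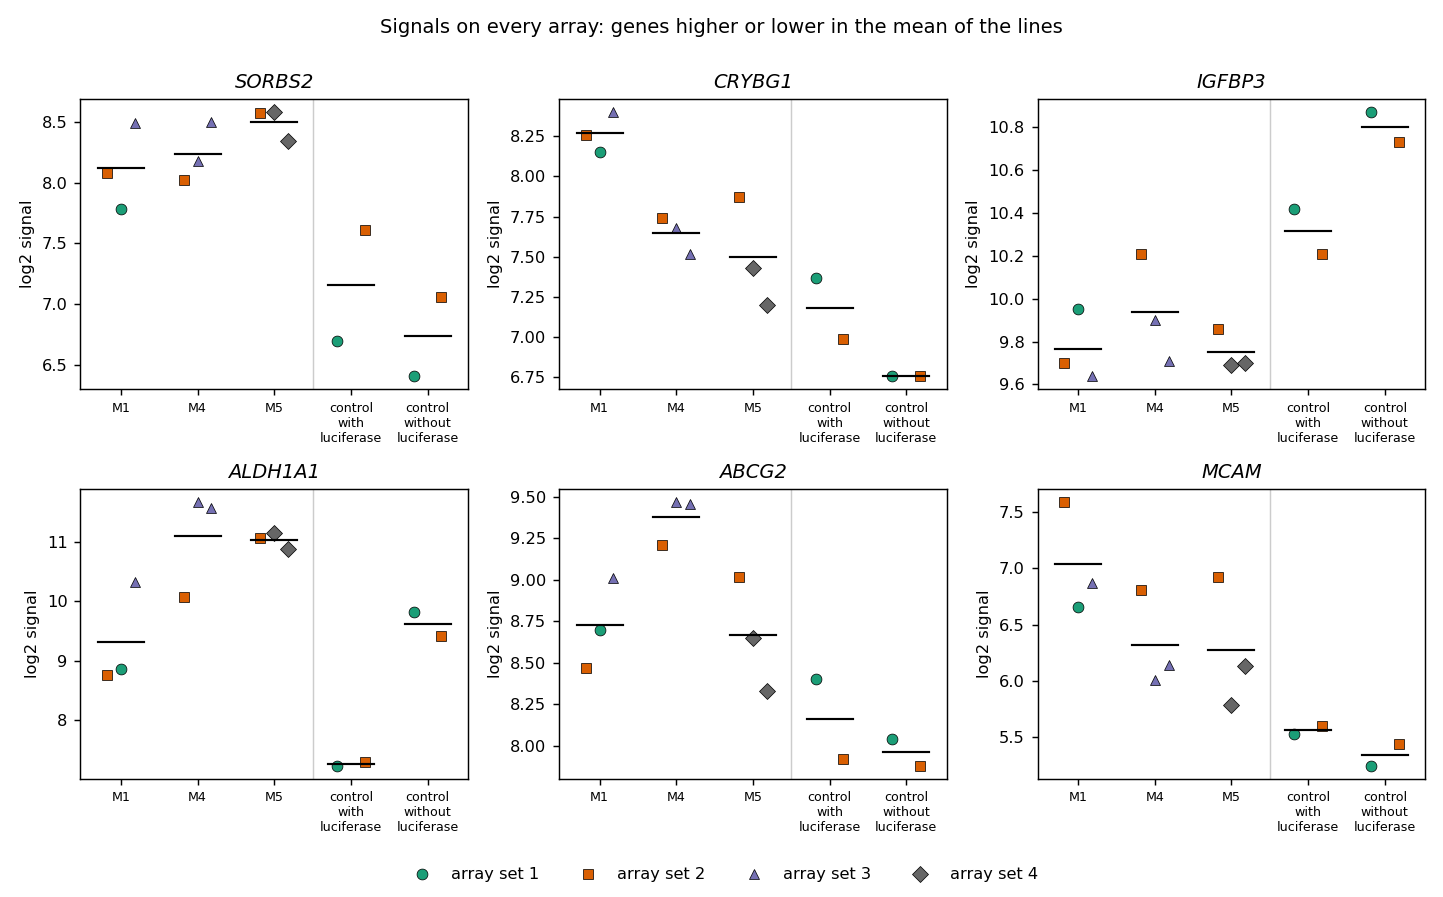
Log2 signal (y axis) on every array for 6 genes, with the 3 metastatic lines left of the 2 kinds of control. Points are arrays, their shape and colour give the array set, and black lines are group means. SORBS2 and MCAM lie above all controls on all 9 metastatic arrays, IGFBP3 lies at or below them, and the 2 kinds of control differ for ALDH1A1.

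These 3 genes, 2 higher (0.0167% of genes) and 1 lower (0.00836%), were the calls among 11963 genes without the block (0.0251%), and 976 genes (8.16%) had an unadjusted p under 0.05, 422 higher and 554 lower. The median difference over all genes was 0.0081. With the array sets as a block, 63 genes (0.527%) passed, 35 higher (0.293%) and 28 lower (0.234%), and they included all 3 genes called without it. Of these 63 genes, 62 had the same direction without the block (DMXL1 did not), and 61 had the same direction in every line with it (VAMP8 and SERPIND1 did not). Both counts come from the arrays that chose these genes. The genes were chosen by the mean of the same line differences, which largely sets a shared direction, so the counts are no separate support. With the 3 spike-in sets as a block 63 genes passed too, of which 40 were among these 63. Of the 40 genes named below by rule and called with the 4 sets, 26 were called with the 3 sets and 14 were not: CDCP1, CLDN1, CXCL1, CYFIP2, FBN2, GAS1, IL6, SPOCK1, TGFBR2, TNIP1 and VAMP8 among those lower, and CYP24A1, MEST and SLC17A9 among those higher (adjusted p = 0.0568 to 0.896 with the 3 sets). The lines' own tests, which share the same 4 control arrays, passed for 15 of the 63 in M1, 11 in M4 and 45 in M5 with the block. PRKD3 was the 1 gene of the 63 that passed for every line, and its M5 part rests on M5 replicate 1. SORBS2, CRYBG1, IGFBP3 and MCAM missed the threshold for M4 (limma adjusted p = 0.0946, 0.14, 0.384 and 0.0622 with the block). A call for the mean therefore does not show a change that passed for each line. The count of called genes without the block fell to 0 when 1 of 7 arrays was left out (610 to 905 genes at an unadjusted p under 0.05). It was 292 without M5 replicate 1 and 13 without M1 replicate 2. With the block it was 8 without control with luciferase replicate 2, 15 without control without luciferase replicate 2, 27 without control with luciferase replicate 1, 29 without M4 replicate 1 and 39 without M1 replicate 2. Over fits that left out 1 array without the block, SORBS2 was called in 5 of 13 (difference 1.11 to 1.57), CRYBG1 in 3 (0.74 to 0.93) and IGFBP3 in 3 (-0.79 to -0.69). With the block SORBS2 was called in 12 of 12 such fits, CRYBG1 in 11 and IGFBP3 in 8, with adjusted p-values up to 0.0492, 0.0577 and 0.202.

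ALDH1A1, an aldehyde dehydrogenase that makes retinoic acid and is used as a marker of stem-like tumour cells, had the largest rise with the block among the called genes not dim in both groups (a metastatic or control mean over 6.202, the middle of the gene means). Its signals were 8.76, 8.86 and 10.33 in M1, 10.07, 11.67 and 11.57 in M4, and 11.07, 11.15 and 10.87 in M5, against 7.23 and 7.29 in controls with luciferase and 9.82 and 9.42 in controls without it. M4 and M5 lay above all controls, and M1 lay between the 2 kinds of control on 2 of its arrays. The mean of the lines was 4.13-fold higher (2.04 ± 0.31), which missed the threshold without the block (adjusted p = 0.0522), and 3.01-fold higher with it (1.59 ± 0.097, adjusted p = 5.37e-05). The difference was 3.22 against controls with luciferase and 0.87 against controls without it. With the block the rise was 0.38 in M1 (adjusted p = 0.243), 1.69 in M4 (adjusted p = 0.000474) and 2.70 in M5 (adjusted p = 5.46e-06). ALDH1A1 was the 1 aldehyde dehydrogenase of 17 measured that was called with the block, beside 0.527% of all genes. The gene lists were drawn up with earlier results of these data known, so such counts do not show that a member stands out in its family.

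ABCG2, an efflux pump that removes drugs and dyes from cells, had 8.47, 8.70 and 9.01 in M1, 9.21, 9.47 and 9.46 in M4, and 9.02, 8.65 and 8.33 in M5, against 8.40 and 7.92 in controls with luciferase and 8.04 and 7.88 in controls without it. It was highest in M4, and 1 M5 array lay under the highest control. The difference was 0.86 ± 0.14 without the block (1.82-fold, adjusted p = 0.0605) and 0.95 ± 0.10 with it (1.93-fold, adjusted p = 0.00192). Of 31 ABC transporters measured, ABCG2 was the 1 called with the block, beside 0.527% of all genes. Among 36 NRF2 target and xenobiotic metabolism genes, limma with the block called 2 higher and 1 lower, beside 0.293% and 0.234% of all genes. GSTA4, a glutathione transferase for lipid aldehydes, was 1.48-fold higher (0.56 ± 0.11, adjusted p = 0.0473), mostly through M5 (1.15, against 0.31 in M1 and 0.23 in M4, each relative to control), and without the block its adjusted p was 0.105. CYP24A1, the enzyme that breaks down vitamin D, was called 0.71 higher with the block and differed by 0.34 without it (adjusted p = 0.754), but its signal lay under the lower quartile of the array on all 4 control arrays, so the fold is not exact. AKR1C3, an aldo-keto reductase of steroids and prostaglandins, is described with the genes whose groups were apart.

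Among cell surface adhesion molecules, MCAM and TSPAN8 rose with the block. MCAM, an immunoglobulin-family adhesion receptor also known as CD146, had signals of 7.59, 6.66 and 6.87 in M1, 6.81, 6.01 and 6.14 in M4, and 6.92, 5.79 and 6.13 in M5, against 5.53 and 5.60 in controls with luciferase and 5.25 and 5.44 in controls without it. All metastatic arrays were above all controls. It was 2.13-fold higher without the block (1.09 ± 0.22, adjusted p = 0.109) and 2.53-fold higher with it (1.34 ± 0.14, adjusted p = 0.00192). TSPAN8, a tetraspanin that organises membrane receptors, had 9.52, 10.41 and 10.56 as the lowest, median and highest of the 9 metastatic signals, against 9.31 and 9.34 in controls with luciferase and 9.49 and 9.40 in controls without it. It was 1.79-fold higher without the block (0.84 ± 0.16, adjusted p = 0.09) and 1.52-fold higher with it (0.60 ± 0.10, adjusted p = 0.0256). They were the 2 genes called with the block of 38 adhesion molecules and cadherins measured, beside 0.527% of all genes.

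MCAM is also 1 of 4 genes that the published study of these samples singled out, so the direction of these genes is not new evidence independent of that choice. PRKD3, a protein kinase D activated by diacylglycerol, had 9.78, 9.83 and 9.49 in M1, 9.62, 9.45 and 9.38 in M4, and 10.37, 9.14 and 8.89 in M5, against 8.85 and 8.70 in controls with luciferase and 9.18 and 8.83 in controls without it. The difference was 0.66 ± 0.21 without the block (adjusted p = 0.429) and 1.11 ± 0.087 with it (2.16-fold, adjusted p = 0.000144). With the block its differences were 0.92, 0.83 and 1.58 for M1, M4 and M5. The M5 value rests on M5 replicate 1, since M5 replicates 2 and 3 lay within the range of the controls, and over all M5 arrays without the block it was 0.58 (adjusted p = 0.281). SUSD5, a membrane protein with sushi and link domains, had signals of 4.53 to 6.21 on metastatic arrays and 3.98 to 4.41 on control arrays, with no overlap, and was 2.99-fold higher with the block (1.58 ± 0.16, adjusted p = 0.00126) and 2.21-fold higher without it (1.14 ± 0.24, adjusted p = 0.133). The transcription factor TCF4 differed by 0.65 ± 0.16 without the block (adjusted p = 0.228) and 0.80 ± 0.15 with it (adjusted p = 0.0505), so it did not pass. The 7 probe sets of TCF4 had differences of 0.18 to 0.80 with the block.

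JAG1, a membrane ligand of Notch receptors, was the 1 member of the Notch list of 20 genes called with the block, beside 0.527% of all genes. Its signals were 6.86, 6.91 and 6.81 in M1, 6.44, 6.96 and 6.63 in M4, and 8.36, 6.40 and 6.50 in M5, against 6.20 and 5.94 in controls with luciferase and 6.83 and 6.70 in controls without it. The rise with the block (0.89 ± 0.10, 1.86-fold, adjusted p = 0.00242) came mainly from M5 replicate 1, since the lines' differences were 0.41 in M1, 0.23 in M4 and 2.03 in M5. Without the block the difference was 0.46 ± 0.28 (adjusted p = 0.747), and it was 0.25 when M5 replicate 1 was left out. JAG1 has 4 probe sets, of which the 2 brighter ones were higher with the block (0.89 and 1.18) and the 2 dimmer ones differed by 0.30 and -0.093.

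Other genes that rose with the block have varied roles. SNAP25, a SNARE protein of exocytosis, had 6.97, 7.46 and 7.43 in M1, 6.45, 7.24 and 7.31 in M4, and 6.89, 5.88 and 5.83 in M5, against 5.79 and 6.02 in controls with luciferase and 5.39 and 5.76 in controls without it. It was 2.22-fold higher with the block (1.15 ± 0.15, adjusted p = 0.0065) and 2.12-fold higher without it (1.09 ± 0.21, adjusted p = 0.105), and its second probe set differed by 0.985 with the block. QPCT, which forms N-terminal pyroglutamate on peptides, had 9.75, 10.40 and 11.10 as the lowest, median and highest metastatic signals, against 9.88 and 9.61 in controls with luciferase and 9.88 and 9.86 in controls without it. MICAL2, an enzyme that oxidises actin, was higher in M1 (0.94) and M4 (0.89) than in M5 (0.40), each relative to control with the block. MEF2C, a transcription factor of muscle and other lineages, was 1.83-fold higher and MEST, an imprinted gene of the hydrolase family, 1.76-fold. SLC17A9, a vesicular nucleotide transporter, was 1.51-fold higher. Adjusted p-values of QPCT, MICAL2, MEF2C, MEST and SLC17A9 with the block ran from 0.0107 to 0.0353. Without the block these 5 genes differed by 0.69, 0.65, 0.52, 0.23 and 0.54, and none passed (adjusted p = 0.105 to 0.88). In M5 alone without the block MICAL2 and MEST differed by -0.14 and -0.35, while QPCT, MEF2C and SLC17A9 were higher there.

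**Figure D2:**
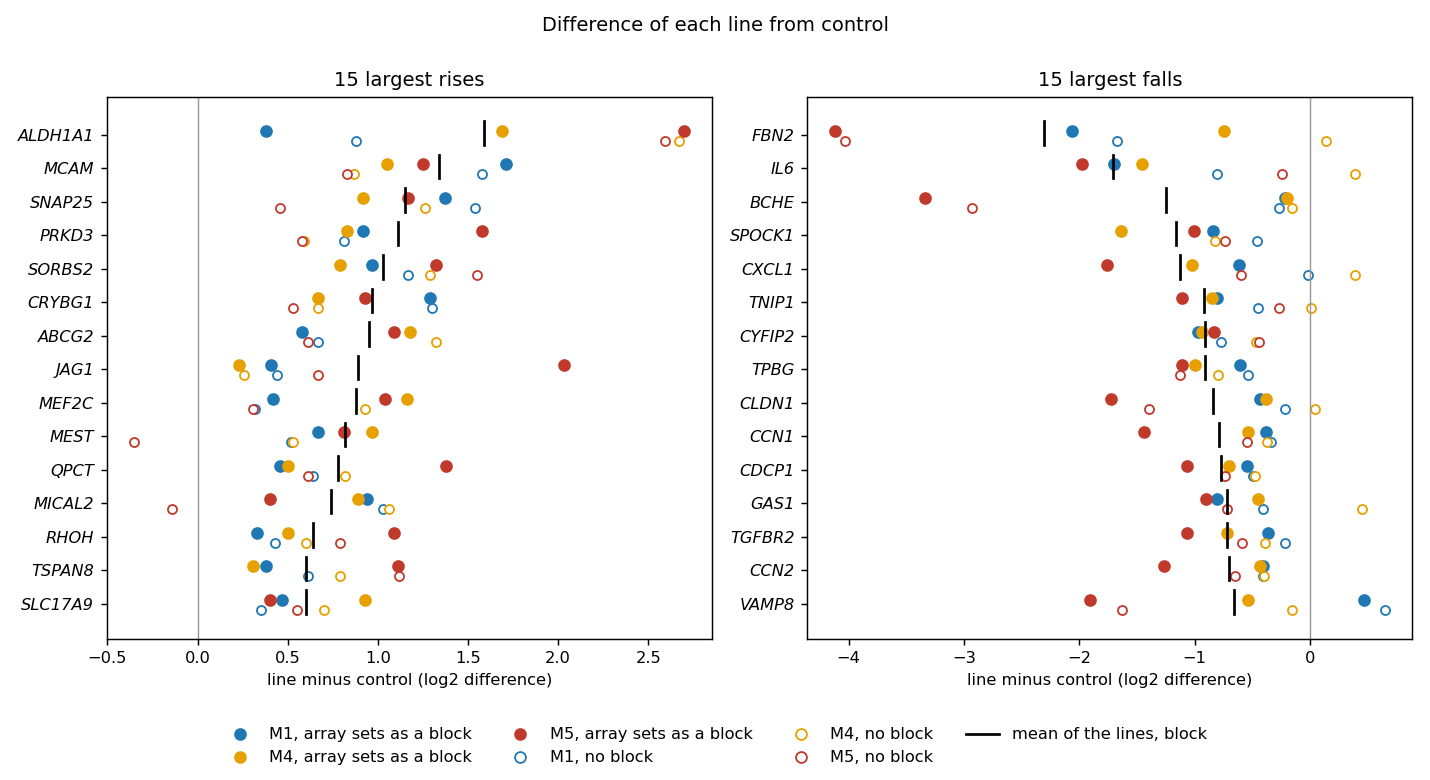
Log2 difference from control (x axis) of each line for the 15 largest rises (left) and the 15 largest falls (right) among genes called with the block. Filled points are lines with the array sets as a block, open points are lines without it, and black bars are the mean of the lines with the block. VAMP8 is the gene in which a line (M1) lies on the other side of 0 with the block, and FBN2 and BCHE are far lower in M5 than in M4.

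The genes that fell with the block included cytokines. IL6, the cytokine interleukin 6, had signals of 7.86, 8.15 and 10.47 in M1, 8.28, 11.04 and 10.76 in M4, and 7.89, 10.93 and 9.38 in M5, against 9.02 and 9.74 in controls with luciferase and 9.35 and 10.45 in controls without it. The groups overlapped over all arrays, and without the block the difference was -0.22 ± 0.64 (adjusted p = 0.955). Within array set 2, M1, M4 and M5 lay below the mean of the controls by -2.23, -1.82 and -2.20, and within set 1 M1 lay below it by -1.03. With the block IL6 was 3.28-fold lower (-1.71 ± 0.32, adjusted p = 0.0455). IL6 was called in 3 of 12 fits with the block that left out 1 array, with adjusted p-values up to 0.388, the highest without control with luciferase replicate 2.

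CXCL1, a chemokine that draws neutrophils, had 11.21, 10.39 and 12.50 in M1, 10.87, 12.29 and 12.15 in M4, and 10.22, 11.26 and 10.86 in M5, against 10.70 and 12.03 in controls with luciferase and 10.63 and 12.15 in controls without it. Control arrays of set 2 exceeded those of set 1 for both kinds of control. The difference was -0.073 ± 0.42 without the block (adjusted p = 0.981) and -1.13 ± 0.13 with it (2.19-fold lower, adjusted p = 0.0025). TNIP1, which restrains NF-kappaB signalling together with A20, was 1.90-fold lower with the block (-0.92 ± 0.15, adjusted p = 0.0209) and differed by -0.24 ± 0.28 without it (adjusted p = 0.887). In the list of 41 measured NF-kappaB targets and inflammatory cytokines, limma with the block called 0 higher and 2 lower, beside 0.293% and 0.234% of all genes. At an unadjusted p under 0.05, 0 were higher and 14 lower with the block, beside 3.81% and 5.88% of all genes, and 1 was higher and 2 lower without it, beside 3.53% and 4.63%. With the 3 spike-in sets as a block IL6, CXCL1 and TNIP1 differed by -0.68, -0.27 and -0.39 (adjusted p = 0.748, 0.896 and 0.702). The median of the list was -0.17 with the block, beside -0.0148 over all genes, and -0.00092 without it, beside 0.0081 over all genes.

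**Figure D3:**
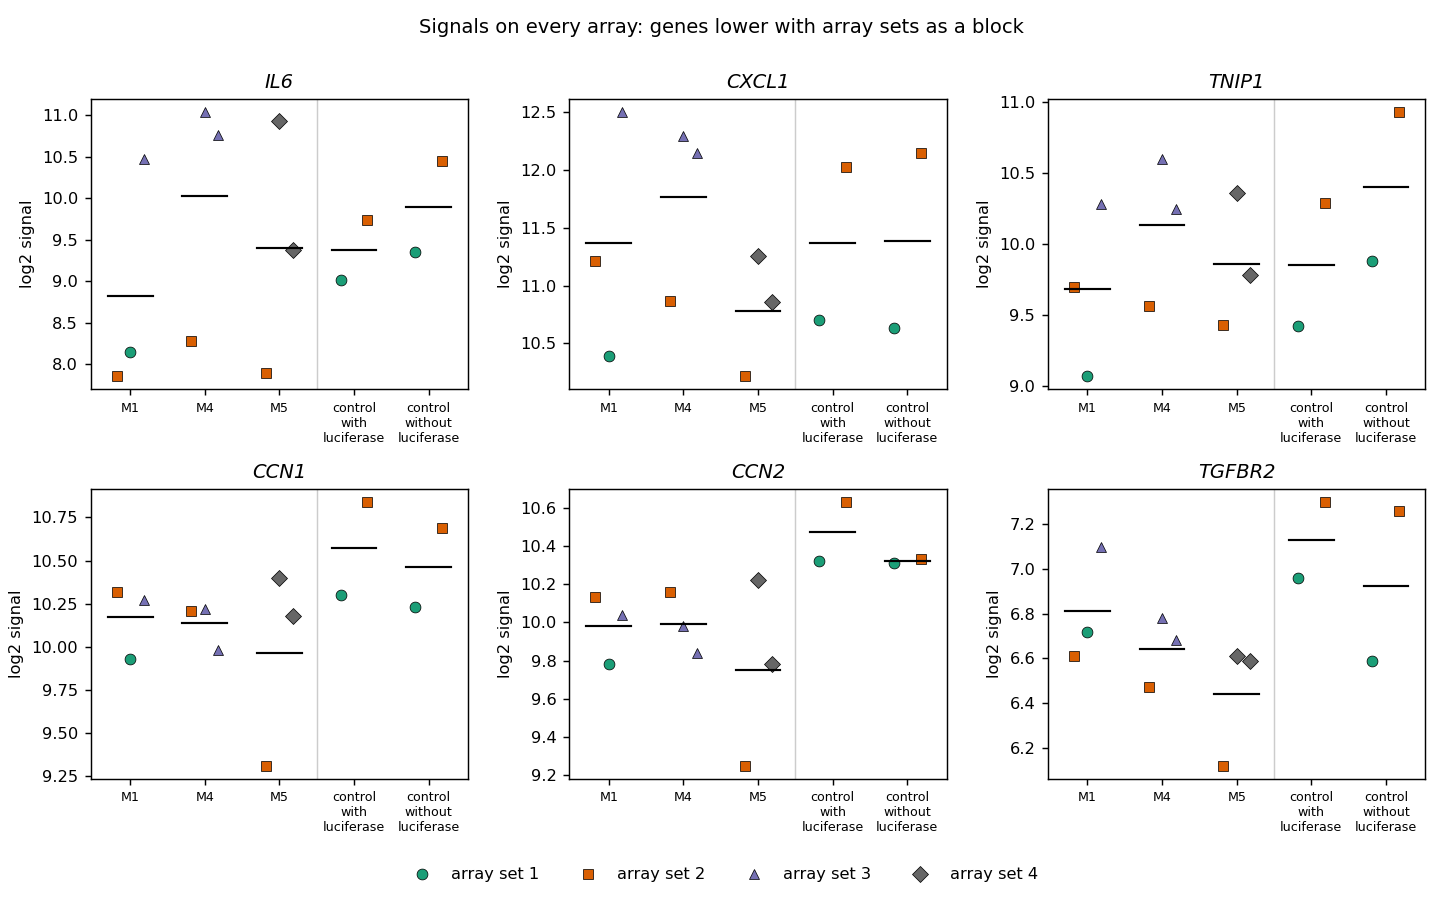
Log2 signal (y axis) on every array for 6 genes that were lower with the array sets as a block. Points are arrays, shapes and colours give the array set, and black lines are group means. IL6 on metastatic arrays of set 2 (squares) lies between 7.86 and 8.28, under the control arrays of the same set, while metastatic arrays of sets 3 and 4 reach 11.04.

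The promoters of IL6 and CXCL1 are shown because both genes are textbook NF-kappaB targets and fell together with the block. The 250 bases before the start of the gene were read from RefSeq (GRCh38.p14), and capitals mark matches to the NF-kappaB motif on either strand. The CXCL1 window is chr4:73869143-73869392 on the plus strand and the IL6 window is chr7:22726950-22727199 on the plus strand.
CXCL1: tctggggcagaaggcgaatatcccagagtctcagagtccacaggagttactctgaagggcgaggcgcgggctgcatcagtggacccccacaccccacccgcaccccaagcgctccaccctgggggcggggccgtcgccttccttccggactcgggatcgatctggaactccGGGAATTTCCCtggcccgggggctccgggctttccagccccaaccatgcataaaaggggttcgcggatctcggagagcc
IL6: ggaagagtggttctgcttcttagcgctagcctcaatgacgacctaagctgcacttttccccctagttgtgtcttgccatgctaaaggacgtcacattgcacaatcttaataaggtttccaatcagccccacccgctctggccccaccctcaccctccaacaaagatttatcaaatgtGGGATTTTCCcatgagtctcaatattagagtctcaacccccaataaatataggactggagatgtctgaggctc
The CXCL1 window holds 2 overlapping matches, from position -79 relative to the start, and the IL6 window holds 1, from position -73. Of 28 genes lower with the block, 24 had a promoter in the table and 3 of them (12.5%; CXCL1, IL6 and CCN2) held the motif. It was in 1 of 30 genes higher with the block (3.33%), in 5.88% of 9563 tested genes with a promoter and in 5.05% of all 27305 promoters. A match describes these letters and shows no binding.

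CCN1 and CCN2, secreted matricellular proteins that bind integrins and are induced by TGF-beta and by YAP with TEAD factors, were both lower with the block. CCN2 had 10.13, 9.78 and 10.04 in M1, 10.16, 9.98 and 9.84 in M4, and 9.25, 10.22 and 9.78 in M5, against 10.32 and 10.63 in controls with luciferase and 10.31 and 10.33 in controls without it. All metastatic arrays lay below all controls. It was 1.40-fold lower without the block (-0.49 ± 0.15, adjusted p = 0.39) and 1.63-fold lower with it (-0.70 ± 0.11, adjusted p = 0.0209). CCN1 had 9.31, 10.21 and 10.40 as the lowest, median and highest metastatic signals, against 10.30 and 10.84 in controls with luciferase and 10.23 and 10.69 in controls without it. It was 1.34-fold lower without the block (-0.42 ± 0.18, adjusted p = 0.584) and 1.72-fold lower with it (-0.79 ± 0.087, adjusted p = 0.00231). Its second probe set differed by -0.427 without the block and -0.85 with it. For both genes M5 replicate 1 was the lowest array.

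Of 25 YAP-TEAD targets measured, limma with the block called 0 higher and 2 lower, beside 0.293% and 0.234% of all genes. At an unadjusted p under 0.05, 2 were higher and 7 lower with the block and 2 higher and 8 lower without it, beside the shares of all genes given for the NF-kappaB list. The list's median was -0.11 without the block and -0.023 with it, beside 0.0081 and -0.0148 over all genes. The promoter of CCN2 (chr6:131951373-131951622, minus strand, RefSeq GRCh38.p14) is shown because it holds 3 matches to the TEAD motif GGAATG on either strand, in capitals, between positions -169 and -95.
CCN2: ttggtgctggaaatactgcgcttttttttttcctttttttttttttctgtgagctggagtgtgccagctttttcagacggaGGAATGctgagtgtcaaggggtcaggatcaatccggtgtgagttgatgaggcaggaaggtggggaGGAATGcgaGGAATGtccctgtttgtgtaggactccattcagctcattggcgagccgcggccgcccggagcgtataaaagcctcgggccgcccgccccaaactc
The motif was in 8.33% of the promoters of genes lower with the block, 10% of those higher with the block, 9.79% of tested genes and 11.9% of all promoters in the table. The CArG motif of serum response factor was in 4.17% of those lower, 0% of those higher and 1.21% of tested genes. TGFBR2, the receptor that binds TGF-beta itself, was 1.64-fold lower with the block (-0.72 ± 0.11, adjusted p = 0.0209) and differed by -0.40 ± 0.15 without it (adjusted p = 0.507). Its second probe set, which was dimmer (mean signal 4.83), differed by -0.108 with the block and 0.0318 without it. TGFBR2 was the 1 gene of the TGF-beta and BMP list of 36 called with the block, beside 0.527% of all genes.

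Genes of extracellular matrix were among the largest falls. FBN2, a fibrillin of microfibrils that hold latent TGF-beta and BMPs in matrix, had 6.06, 6.55 and 8.18 in M1, 8.60, 8.93 and 8.69 in M4, and 4.77, 4.46 and 4.45 in M5, against 7.69 and 8.55 in controls with luciferase and 8.59 and 9.55 in controls without it. M5 lay far below all controls and M4 within their range. FBN2 was 4.97-fold lower with the block (-2.31 ± 0.27, adjusted p = 0.00301) and 3.61-fold lower without it (-1.85 ± 0.32, adjusted p = 0.0684), and it differed among the lines (limma F test, adjusted p = 0.00119). Its second probe set, which was dim (mean signal 3.64), differed by -0.098 with the block and -0.0056 without it. SPOCK1, a matrix proteoglycan also called testican, had 7.11, 7.48 and 8.85 as the lowest, median and highest metastatic signals, against 7.50 and 8.40 in controls with luciferase and 8.77 and 8.52 in controls without it. It was 2.24-fold lower with the block (-1.16 ± 0.19, adjusted p = 0.0226) and differed by -0.67 ± 0.26 without it (adjusted p = 0.539). FBN2 and SPOCK1 were the 2 called with the block of 42 basement membrane and matrix genes, beside 0.527% of all genes.

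Several surface and membrane-linked proteins were also lower with the block. TPBG, an oncofoetal glycoprotein known as 5T4, had 7.46 to 7.89 in M1 and M4 and 6.93 to 7.46 in M5, against 7.77 and 8.47 in controls with luciferase and 8.39 and 8.92 in controls without it. It was 1.87-fold lower with the block (-0.91 ± 0.14, adjusted p = 0.0209) and 1.77-fold lower without it (-0.82 ± 0.14, adjusted p = 0.0704). CLDN1, a claudin of tight junctions, was 1.80-fold lower with the block, and relative to control its difference was -1.73 in M5, -0.43 in M1 and -0.38 in M4. CDCP1, a membrane substrate of Src kinases, was 1.71-fold lower, and EPHA2, a receptor tyrosine kinase for ephrin A ligands, was 1.42-fold lower (-0.51 ± 0.095, adjusted p = 0.0473). CYFIP2, a subunit of the WAVE complex that drives actin branching, was 1.88-fold lower, with differences of -0.91 and -0.66 in its 2 probe sets. GAS1, a membrane co-receptor for hedgehog, was 1.65-fold lower, and its second, dimmer probe set differed by -0.172 with the block. Without the block CLDN1, CDCP1, EPHA2, CYFIP2 and GAS1 differed by -0.52, -0.57, -0.59, -0.56 and -0.23, and none passed (adjusted p = 0.138 to 0.884). In M4 alone these differences without the block were 0.047, -0.48, -0.45, -0.47 and 0.45, so CLDN1 and GAS1 were not lower there.

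BCHE, butyrylcholinesterase, and VAMP8, a SNARE protein of endosomes, met the threshold for the mean mainly through M5. BCHE had 6.21 to 7.35 in M1, 6.62 to 7.32 in M4 and 4.03 to 4.14 in M5, against 6.62 and 7.32 in controls with luciferase and 6.77 and 7.42 in controls without it, so that M5 alone lay well below the controls. BCHE differed by -1.12 ± 0.21 without the block (adjusted p = 0.0954) and by -1.25 ± 0.096 with it (adjusted p = 0.000144). VAMP8 had 6.64 to 7.18 in M1, 5.66 to 6.29 in M4 and 4.37 to 4.92 in M5, against 5.26 and 5.47 in controls with luciferase and 6.91 and 7.26 in controls without it. VAMP8 differed by -0.38 ± 0.15 without the block (adjusted p = 0.539) and by -0.66 ± 0.12 with it (adjusted p = 0.0413). The lines differed in both genes (F test, adjusted p = 0.000672 each). In all, 10 of the 63 genes differed among the lines without the block and 18 with it, beside 187 (1.56%) and 129 (1.08%) of all genes. Those that differed in both fits were BCHE, VAMP8, FBN2, CLDN1, SERPIND1, PPEF1 and BTBD3, while MICAL2, ARAP2 and GSTA4 did so without the block alone (adjusted p = 0.384, 0.0703 and 0.0633 with it). SERPIND1, heparin cofactor II, was 2.14-fold higher with the block (1.10 ± 0.15, adjusted p = 0.00864), by 3.09 in M5 and 0.42 in M1, whereas M4 was lower by -0.21. Without the block it was 3.34-fold higher (1.74 ± 0.34, adjusted p = 0.105), by 3.45 in M5, 0.94 in M1 and 0.83 in M4. Within array set 2, M1 and M4 differed from the controls by 0.064 and 0.035.

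A group of genes that were dim in control cells also rose with the block, and they are named here after their values were seen. CHRNA9, a nicotinic acetylcholine receptor subunit, had 5.0, 5.26 and 4.26 in M1, 4.07, 3.96 and 4.21 in M4, and 7.56, 5.40 and 5.49 in M5, against 3.72 and 3.75 in controls with luciferase and 3.75 and 3.59 in controls without it. CD36, a receptor for fatty acids and thrombospondin, had 4.96 to 5.53 in M1, 4.33 to 4.38 in M4 and 5.24 to 7.35 in M5, against 3.94 and 4.15 in controls with luciferase and 4.11 and 4.19 in controls without it. PPEF1, a protein phosphatase with EF hands, and THSD7A, a membrane protein with thrombospondin repeats, likewise lay above all controls. With the block the differences were 2.00 for CHRNA9, 1.40 for CD36, 1.24 for PPEF1 and 0.89 for THSD7A (adjusted p = 5.7e-05, 5.7e-05, 0.000606 and 0.00925). These means rest mainly on M5, that is on M5 replicate 1, where the differences were 3.97, 3.16, 2.85 and 1.80, and in M4 they were 0.74, 0.04, 0.43 and 0.34, none of which passed. Without the block the means were 1.32, 1.08, 0.99 and 0.62, and none passed (adjusted p = 0.237, 0.323, 0.0605 and 0.5). The other probe sets of CD36 differed by 1.32 and 0.0882 with the block. The other probe set of THSD7A, which did not stand for the gene, was dim too (mean signal 4.26). It differed more, by 1.21 without the block (limma unadjusted p = 3.13e-06) and 1.31 with it. All 4 genes lay under the lower quartile of the array on all 4 control arrays, so their folds are not exact.

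A separate reading used only whether the groups overlapped. In 33 genes all 9 metastatic arrays lay above all 4 controls (0.276% of genes) and in 39 they lay below (0.326%), and 17 of these 72 were called with the block. Of those above, S100A4, a calcium-binding protein of motile cells, had 10.04, 10.76 and 11.31 in M1, 10.19, 11.21 and 11.13 in M4, and 11.18, 11.32 and 10.68 in M5, against 9.98 and 9.72 in controls with luciferase and 9.70 and 9.90 in controls without it. S100A4 was 2.06-fold higher (1.04 ± 0.23), without passing the test (adjusted p = 0.17 without the block and 0.0528 with it). COCH, a matrix protein of the inner ear, was 1.57-fold higher without the block (adjusted p = 0.0704) and 1.48-fold higher with it (0.57 ± 0.077, adjusted p = 0.00875). NMB, the peptide neuromedin B, was 1.38-fold higher with the block (adjusted p = 0.0411) and 1.45-fold higher without it (adjusted p = 0.108). RBM47, an RNA-binding protein of epithelial cells, was 1.39-fold higher with the block (adjusted p = 0.0473) and 1.45-fold higher without it (adjusted p = 0.051). RBM47 had 10.38 to 10.85 on metastatic arrays and 10.08 to 10.22 on control arrays, a narrow spread in both.

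IMPA2, an inositol monophosphatase, had the smallest SD among metastatic arrays of the 15 named genes that lay above (0.069), with signals of 8.97 to 9.21 on metastatic arrays against 8.49 to 8.86 on control arrays and differences of 0.44 in M1, 0.47 in M4 and 0.45 in M5. It missed the threshold in both fits (adjusted p = 0.0852 without the block and 0.0764 with it). TAOK3, a stress kinase, PARP16, an enzyme of the endoplasmic reticulum, GCHFR, which regulates tetrahydrobiopterin synthesis, and BCAS3, a protein of cell polarity and autophagy, differed by 0.53, 0.38, 0.32 and 0.50 without the block. RXRA, the retinoid X receptor, and RDH11, a retinal reductase, differed by 0.32 and 0.29 without the block. With the block TAOK3, PARP16, GCHFR and BCAS3 differed by 0.426, 0.384, 0.192 and 0.195, and RXRA and RDH11 by 0.379 and 0.283. None of TAOK3, PARP16, GCHFR, BCAS3, RXRA and RDH11 passed in either fit.

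Among genes that lay below all controls, AKR1C3, CCN2, ARAP2 and STEAP1B were called with the block. AKR1C3 had 12.18, 12.23 and 12.42 in M1, 11.98, 12.25 and 12.23 in M4, and 12.14, 12.00 and 11.96 in M5, against 12.64 and 12.49 in controls with luciferase and 12.77 and 12.61 in controls without it. It was 1.40-fold lower with the block (-0.48 ± 0.068, adjusted p = 0.0107) and 1.39-fold lower without it (-0.47 ± 0.084, adjusted p = 0.0704). NT5E, the ectoenzyme CD73 that makes adenosine, had 7.64, 8.63 and 9.05 as the lowest, median and highest metastatic signals, against 9.20 and 9.31 in controls with luciferase and 9.22 and 9.45 in controls without it, and its difference of -0.78 ± 0.18 did not pass (adjusted p = 0.176 without the block and 0.0881 with it). CHML, a Rab escort protein, and STAC, an adaptor with an SH3 domain, differed by -0.70 and -0.60. HIF1AN, which hydroxylates HIF-1alpha, the proapoptotic BAK1 and the haem synthesis enzyme ALAS1 differed by -0.37, -0.35 and -0.40. SEC61A1, the protein channel of the endoplasmic reticulum, differed by -0.45, and UAP1, which makes UDP-N-acetylglucosamine, by -0.54. The differences given from CHML to UAP1 are without the block. With the block CHML and STAC differed by -0.607 and -0.398, and HIF1AN, BAK1 and ALAS1 by -0.2, -0.199 and -0.272. SEC61A1 and UAP1 differed by -0.317 and -0.17 with it. MAPK6, GALNT10, GPN2, PCYOX1L and AHNAK differed by -0.35 to -0.46 without the block and by -0.25 to -0.379 with it. None of NT5E and the genes named after it passed in either fit.

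**Figure D4:**
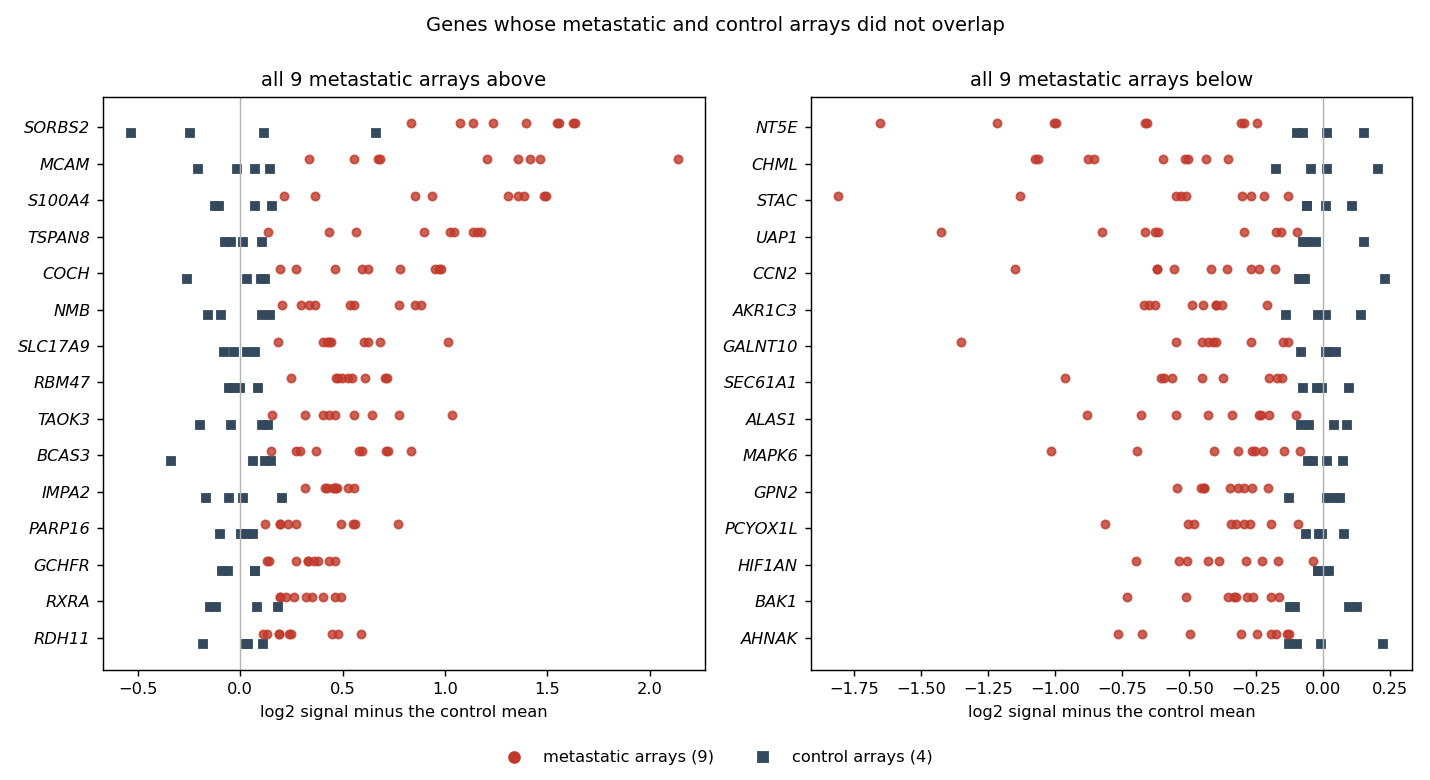
Log2 signal minus the control mean (x axis) for the 15 named genes with all 9 metastatic arrays above (left) or below (right) all 4 control arrays. Red circles are metastatic arrays and dark squares are control arrays. Spreads differ, as IMPA2 varies little among metastatic arrays while MCAM, S100A4 and NT5E vary widely.

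In 17 genes (0.142%) every line differed from control without the block by more than 1.5-fold in the same direction, 13 higher (0.109%) and 4 lower (0.0334%), and 9 of them were called with the block. The higher ones were ALDH1A1, SERPIND1, SORBS2, SUSD5, MCAM, S100A4, SMAD3, ERC2, CTH, ABCG2, TSPAN8, EYA4 and QPCT, and the lower ones were IGFBP3, CHML, STC2 and DCLK1. With the block 6 of the 17 (SORBS2, SUSD5, MCAM, ERC2, STC2 and DCLK1) still passed 1.5-fold in every line. The other 11 did not, among them ALDH1A1 (0.38 in M1), IGFBP3 (-0.37 in M4), TSPAN8 (0.31 in M4) and SERPIND1 (-0.21 in M4). SMAD3, which carries the TGF-beta signal to the nucleus, had 6.42, 7.30 and 7.78 as the lowest, median and highest metastatic signals, against 6.50 and 6.37 in controls with luciferase and 5.49 and 6.14 in controls without it. Its difference was 1.02 ± 0.21 without the block (adjusted p = 0.115) and 0.58 with it (adjusted p = 0.103). STC2, a secreted glycoprotein, differed by -0.67 ± 0.19 without the block (adjusted p = 0.323) and -0.88 ± 0.18 with it (adjusted p = 0.0695).

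Read by pathway, few members of any list passed. Of 36 measured osteolysis and bone-homing factors, limma with the block called JAG1 higher and IL6, CCN1 and CCN2 lower. Without the block it called 0. At an unadjusted p under 0.05, 1 was higher and 5 lower without the block, beside 3.53% and 4.63% of all genes. With the block 3 were higher and 7 lower at that threshold, beside 3.81% and 5.88%. DKK1, a secreted Wnt inhibitor of osteoblasts, differed by -0.51 ± 0.14 without the block (adjusted p = 0.32) and -0.29 ± 0.14 with it (adjusted p = 0.548). Of 21 genes of the insulin-like growth factor axis, IGFBP3 was called lower in both fits. Of 40 actin adaptors and regulators, SORBS2 and CRYBG1 were called higher in both fits while the list's median was -0.041. The list was drawn up with earlier results of these data known. It did not hold CYFIP2, called lower with the block, or MICAL2, called higher with it, so its count is no evidence about actin genes as a class. In 33 epithelial identity genes CLDN1 was called lower with the block, and in 42 axon guidance genes EPHA2 was. In 27 immediate early genes CCN1 was called lower with the block, and in 38 extracellular proteases and inhibitors SERPIND1 was called higher. These counts stand beside 0.527% of all genes called with the block.

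Other lists had no gene called by limma in either fit. The 30 mesenchymal genes had 4 higher and 3 lower at an unadjusted p under 0.05 without the block, and the 27 integrin and focal adhesion genes had 0 higher and 4 lower. The 38 Wnt genes had 1 higher and 2 lower, and the 29 EGFR family and MAPK feedback genes 0 higher and 2 lower. The 41 hypoxia and glycolysis genes had 5 higher and 6 lower, with SLC2A3, a glucose transporter, at 0.48 ± 0.12 (adjusted p = 0.228). The 36 interferon-stimulated genes had 2 higher and 2 lower, and the 27 MHC and antigen presentation genes 0 higher and 2 lower. The 43 genes of G1/S and replication had 0 higher and 4 lower and the 39 of G2/M and mitosis 0 higher and 2 lower. The 27 p53 and apoptosis genes had 0 higher and 1 lower, the 28 unfolded protein and heat shock genes 1 higher and 1 lower, the 25 cholesterol and fatty acid genes 0 in either direction, and the 24 lung lineage genes 2 higher and 1 lower. With the block their unadjusted counts ran from 0 to 4 higher and 1 to 5 lower. Over all genes 3.53% were higher and 4.63% lower at that threshold without the block, and 3.81% and 5.88% with it.

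**Figure D5:**
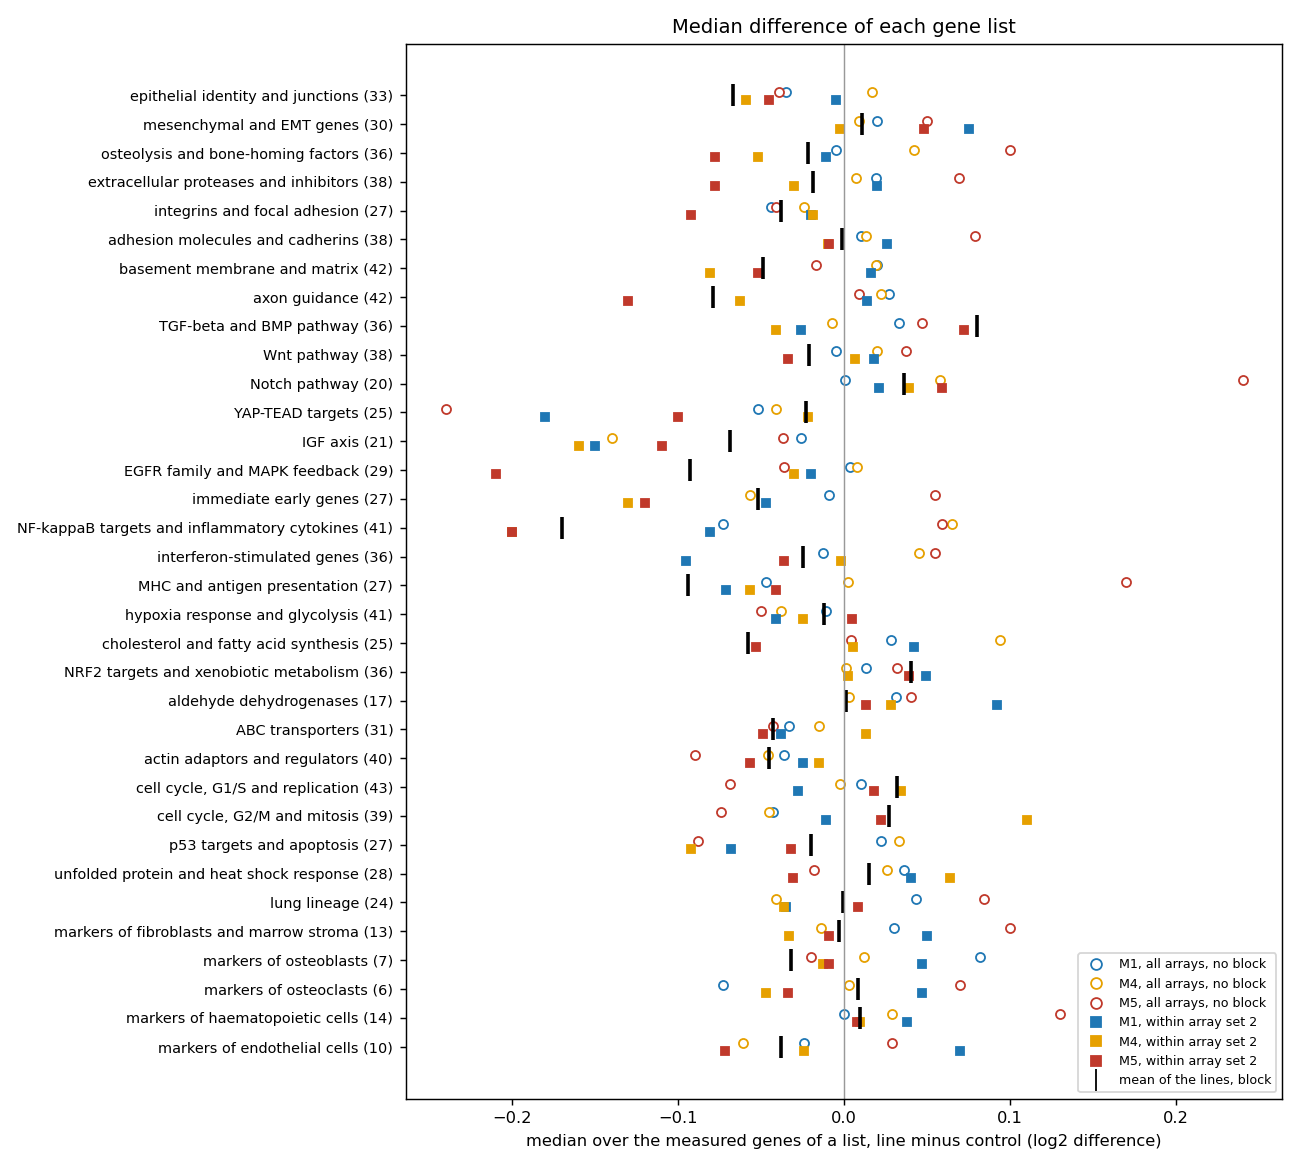
Median log2 difference from control (x axis) over the measured genes of each list, with their number in brackets. Open circles are the lines over all arrays without the block, filled squares are the lines within array set 2, and black bars are the mean of the lines with the block. Medians lie between -0.24 and 0.24, and within set 2 those of 12 of the 34 lists are negative in all 3 lines, NF-kappaB targets among them.

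Markers of other cells that a bone sample could hold did not pass the test for the mean of the lines. Limma called 0 of 13 fibroblast and marrow stroma, 7 osteoblast, 6 osteoclast, 14 haematopoietic and 10 endothelial markers in either fit. At an unadjusted p under 0.05 without the block, 0, 0, 1, 1 and 0 were higher and 0 lower in each list. With the block 1, 0, 1, 0 and 0 were higher and 1, 0, 0, 0 and 0 lower. Over all genes 0.0251% were called without the block and 0.527% with it. At the unadjusted threshold 3.53% were higher and 4.63% lower without the block, and 3.81% and 5.88% with it. At those shares, lists this short would hold few or no such genes, so these counts say little about the markers. The summed linear signal of the haematopoietic markers was 282 to 399 on metastatic arrays and 280 to 338 on control arrays, and that of the endothelial markers 339 to 412 on metastatic arrays and 336 to 421 on control arrays. PTPRC, the pan-leukocyte antigen CD45, lay under the lower quartile of the array on 8 of 9 metastatic and 4 of 4 control arrays. The summed signal of the stroma markers was 843 to 2490 on metastatic arrays and 962 to 1180 on control arrays, with COL3A1 at 10.93 on M1 replicate 1 and 8.16 on M5 replicate 3. COL3A1, a fibrillar collagen, was higher in M1 with the block (1.43, adjusted p = 0.00521), differed by -0.11 in M5, and differed among the lines in both fits (adjusted p = 0.039 without the block and 0.0395 with it). For the mean of the lines it differed by 0.39 without the block and 0.75 with it. Its other probe sets differed by 1.28 (limma unadjusted p = 6.5e-06), 0.752 and 0.124 with the block. The count of stroma markers called therefore holds for the probe set that stood for each gene. Any host cells would be of mouse, which these human probes were not designed for.

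Positions were taken from RefSeq (GRCh38.p14). Chromosome 3 holds 655 of the tested genes (5.48%) and 7 of the 28 genes lower with the block (25%), among them BCHE, CLDN1, CDCP1 and TGFBR2. Its genes had a median difference of -0.55 in M5 without the block and -0.38 with it, whereas the medians of M1 and M4 without the block were -0.026 and 0.013. Chromosome 5 holds 507 genes (4.24%) and 5 of the 28 (17.9%), including FBN2, SPOCK1, TNIP1 and CYFIP2, and its medians without the block were -0.15 in M1, -0.17 in M4 and -0.0026 in M5. The part of these shifts in the calls was not tested. Of the 35 genes higher with the block, chromosome 4 (3.79% of tested genes) and chromosome 20 (2.77%) held 5 each. Some of the 35 lie close together: RHOH, CHRNA9 and RBM47 at chr4:40191080-40630852, PRKD3 and QPCT at chr2:37250502-37373322, and SNAP25, JAG1 and BTBD3 at chr20:10218830-11926595. Whether such neighbours changed together was not tested. SORBS2 lies at chr4:185585523-185956372, CRYBG1 at chr6:106360717-106572017, IGFBP3 at chr7:45912245-45921272, ALDH1A1 at chr9:72900671-72953053 and MCAM at chr11:119308529-119317130.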

How the data were processed

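Total RNA was measured on 13 Affymetrix arrays. The authors deposited a log2 signal for each of 22277 probe sets, made with RMA per the submitters' processing notes. Its version and any further step were not given in the sources used. From them, 19064 probe sets with 1 gene in the platform table were kept, 1043 with several genes, 2108 with none and 62 control probe sets were left out, and the probe set with the highest mean stood for each of 11963 genes. Of their symbols, 11955 were found in RefSeq (GRCh38.p14). No filter on low signal was applied.

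limma (3.58.1, R 4.3.3) fitted the 5 group means over 13 arrays with lmFit and eBayes, and the mean of M1, M4 and M5 was set against the mean of the 2 kinds of control. A gene counted as called when its p, adjusted over all genes by Benjamini-Hochberg, was under 0.05. The second fit had 4 array sets as a block, from Ward clustering of the 62 control probe sets. An F test compared the lines. The number of arrays limits the precision. Errors beside differences are SE. The code was tested on simulated data. Unannotated probe sets were not used here.

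The comparison, its gene lists and the array sets were chosen with earlier results of these data known. Named genes are those called without the block, the 15 largest rises and falls called with it and the 15 largest without overlap (each with the higher mean above 6.202, the median of all genes, and for the block the same direction without it), up to 4 called members of each list or 2 with the smallest p, the published study's 4 genes and markers. Replicate numbers do not pair samples: the deviations of same-numbered arrays correlated at -0.51 to -0.051 in 12 pairs, against 0.18 to 0.51 for 8 pairs of the same array set. Alternatives were other blocks, limma settings, probe set choices, scalings, subsets of controls or lines and leaving out each array.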

Additional observations from a re-analysis of the deposited data

Results flagged for a closer look

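Among 124 sets of metastatic or control signals of 62 named genes, 8 held 1 array far from the rest of its set by Dixon's criterion, which chance meets in about 1 set in 20. On M5 replicate 1, JAG1 was at 8.36, CCN1 at 9.31 and CCN2 at 9.25, apart from the other metastatic arrays, and M5 rests on this array with the block. The other arrays that stood apart were M1 replicate 3 for SPOCK1 (8.85), M5 replicate 2 for GALNT10 (5.95), control with luciferase replicate 2 for QPCT (9.61) and CCN2 (10.63), and control without luciferase replicate 2 for SUSD5 (3.98).

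The difference from control was not the same in the 3 lines for 10 of the 63 genes called with the block (limma F test among the lines without the block). Its adjusted p was 0.000672 for BCHE, 0.000672 for VAMP8, 0.00119 for FBN2, 0.00164 for PPEF1, 0.0129 for CLDN1, 0.0135 for MICAL2, 0.0156 for SERPIND1, 0.0191 for ARAP2, 0.0236 for GSTA4 and 0.0248 for BTBD3. With the array sets as a block MICAL2, ARAP2 and GSTA4 no longer passed (adjusted p = 0.384, 0.0703 and 0.0633).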

How the results depend on the processing

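Without the block 3 genes were called. Counts were 63 with either 4 array sets or 3 spike-in sets as a block (for the 3 sets 47 higher and 16 lower, 40 of them shared with the 4 sets), 13 with an intensity trend and robust prior, 19 after quantile normalization, 6 with the probe set of largest interquartile range, 6 with the mean of probe sets, 5 among genes above the median signal and 1 with controls with luciferase only. They were 15 without line M1, 10 without M4 and 11 without M5. limma called 0 with the replicate block (550 genes at an unadjusted p under 0.05), the label digit as a block (543), median centring (970), an adjusted p under 0.01 (976), the line as a random block (752) and 1 mean per line (874). Leaving out 1 array gave 0 to 292. With the block, where 63 were called, the count was 21 at an adjusted p under 0.01, 123 with trend and robust prior, 33 for M1 and M4 alone and 8 to 90 without 1 array. Without M5 replicate 1 that fit could not be made. The 187 genes that differed among the lines became 42 to 1996. The causes were not tested.

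Directions of some genes called only with the block reversed without it, none of them passing a test: RHOH -0.01 with the label digit block; against controls with luciferase only, GAS1 0.024, IL6 0.039, MEST -0.10, TNIP1 0.036 and VAMP8 0.48; without line M1, IL6 0.074; without line M5, CXCL1 0.19, GAS1 0.020 and VAMP8 0.25. Without 1 array, CXCL1 ranged from -0.45 to 0.31, IL6 from -0.50 to 0.07, MEST from -0.047 to 0.52 and TNIP1 from -0.50 to 0.023.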
